A study of Mus musculus with 33 samples.

Results

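Integrins are cell surface receptors made of 1 α and 1 β subunit, and laminins are basement membrane proteins made of 1 α, 1 β and 1 γ chain. The genes described here were chosen by symbol from the 55487 genes listed in the RNA-seq tables, as every symbol of the form Itga or Itgb with a subunit number or letter, or Lama, Lamb or Lamc with a chain number. The rule finds 37 genes, of which 18 encode integrin α subunits, 8 integrin β subunits, 5 laminin α chains, 3 laminin β chains and 3 laminin γ chains. Laminin trimers are assembled in the secretory pathway, are deposited outside the cell and polymerise into a sheet with type IV collagen, nidogen and perlecan. Integrins α3β1, α6β1, α7β1 and α6β4 bind laminins, other pairs bind collagens or RGD-containing ligands such as fibronectin and vitronectin, and β2 pairs are known from leukocytes. Embryonic stem cells (ESCs) adhere mainly through β1 integrins, and laminin 111, the trimer of the α1, β1 and γ1 chains, is among the earliest laminins of the mouse embryo.

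RNA was sequenced from C57BL/6 mouse ESCs in 11 groups with 3 libraries each, 33 in all, to compare gene expression after loss of the HP1 proteins or of SETDB1. HP1α, HP1β and HP1γ (genes Cbx5, Cbx1 and Cbx3) are readers of methylated histone H3 lysine 9, and SETDB1 is an enzyme that writes this mark. The single mutants are Hp1γ Δ/Δ, Hp1β Δ/Δ and Hp1α Δ/Δ, and the double mutants Hp1β/γ Δ/Δ, Hp1α/γ Δ/Δ and Hp1α/β Δ/Δ, all constitutive CRISPR/Cas9 knockouts, and in the Hp1α/β/γ Δ/Δ triple mutant a floxed Hp1γ was removed with Cre recombinase from cells that already lacked HP1α and HP1β. The other groups are 2 sets of wild-type libraries, here called set A (control of the single mutants, of Hp1α/β Δ/Δ and of the triple mutant in the deposited tables) and set B (control of the other double mutants), Setdb1 F/F ESCs, which carry floxed alleles and are labelled SETDB1FF, and Setdb1 Δ/Δ cells, labelled SETDB1KO, made from floxed cells with Cre. All lines were kept on fibroblast feeders with serum and LIF, and ESCs were separated from feeders by their lack of adhesion to gelatin. How many clones stand behind each genotype is not given in the sources used here, and the triple mutant is set against wild-type cells. The study's own account names floxed cells given a control vector as its control, while the labels and the deposited tables give libraries of wild-type genotype. The pairing of the deposited tables is used here, and if those libraries are wild type, Cre and the time of loss cannot be told apart from genotype.

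Levels are given as CPM, the counts of a gene scaled to a common library total after edgeR's TMM normalization. Where genes are compared with each other the deposited TPM is used, which also divides by transcript length. A gene is called higher or lower at a Benjamini-Hochberg adjusted p under 0.05 in edgeR's quasi-likelihood test, adjusted over all genes tested, together with an absolute log2 fold change over 1. With 3 libraries against 3 no exact permutation test of a single gene can go below 0.1, so the p-values rest on the spread that edgeR shares across genes. Library totals ran from 17330992 to 25743193 counts. The targeted transcripts were lower in every mutant but not absent, for example Cbx1 with 430.4 to 448 CPM in set A, against 42.1 to 47.6 CPM in the triple mutant, and Setdb1 with 131 to 136 CPM in Setdb1 F/F and 67.7 to 71.6 CPM in Setdb1 Δ/Δ libraries. Of Cbx5, Cbx1, Cbx3 and Setdb1, 2 were called lower in the triple mutant and 0 in Setdb1 Δ/Δ cells. All 4 passed the adjusted p alone in each, so not every HP1 transcript passed the fold threshold in the triple mutant. The ESC markers fixed for this work (Pou5f1, Nanog, Sox2 and 5 others) summed to 3639.7 to 3670.3 CPM in set A, 1436 to 1478 CPM in the triple mutant, 6282 to 6307 CPM in Setdb1 F/F and 4438 to 4500.2 CPM in Setdb1 Δ/Δ libraries, and 6 of the 8 were called lower in the triple mutant. In Hp1α/γ Δ/Δ replicates 1, 2 and 3 these markers summed to 5886, 8571 and 6078 CPM, against 3556 to 3617 CPM in set B, with 3 of the 8 called higher. Replicate 2 of Hp1α/γ Δ/Δ stood apart from the other libraries of its group. It was the lowest of the 3 libraries for 14 and the highest for 4 of the 20 integrin and laminin genes with at least 5 CPM there, and Lamc1, for example, had 454, 228 and 433 CPM in replicates 1, 2 and 3. Without it the same 3 genes were called in that mutant, Lama4 at −4.46 and Itga10 at 1.02 among them. In bulk RNA, fewer cells that express a gene and less RNA per cell cannot be told apart.

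Wild-type ESCs expressed a full set of chains for laminins with α1 or α5. By length-scaled level in set A, Lamc1, the common γ chain, stood first of the 37 genes with 114 ± 1.91 TPM (SD, n = 3). Itgb1, the β subunit shared by most integrins, followed with 83.1 ± 2.53 TPM. Lama5 (71.8 to 78.6 TPM), Itgb5 (70.6 to 72.0 TPM) and Itga6 (67.1 to 75.8 TPM) came next, and their ranges touch, so their order is not resolved. Lamb1 (57.8 ± 1.39 TPM), Itga3 (39.2 ± 4.19 TPM) and Lama1 (25.3 ± 0.348 TPM) were lower still. The deposited length of Itga6 is 3393 bases, against 9025 bases of annotated exon, so its place above Lamb1 and Itga3 depends on the length used. Of the laminin α chains α5 and α1 therefore made up most of the mRNA, and the laminin-binding receptor subunits α6 and α3 stood above all other α subunits. In CPM, 7 of the 37 genes averaged at least 100 CPM over all libraries (Lamc1, Lama5, Itgb1, Itga6, Lamb1, Itga3 and Lama1) and 10 averaged under 1 CPM. Itga2, Itgad, Itgax and Itgb6, 4 genes of collagen, leukocyte and epithelial integrins, had too few counts to pass the filter in any comparison, and the other 33 were tested in at least 1. No gene was at 0 in every library. The 4 untested genes had at most 8 counts in any library.

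For these genes the wild-type sets were close to each other. By edgeR 0 of the 28 genes tested were called between set B and set A, against 5.68% of all genes tested, and DESeq2 also called 0. The unadjusted p was under 0.05 for 8 of the 28, and 3 of the 28 passed the adjusted p alone, against 24.8% of all genes. These were Lama1 (log2 fold change of set B over set A −0.43), Lama4 (0.43) and Itga3 (0.21), so differences of this size arise between libraries with the same genotype label. The plot of 9 genes in each library shows both sets.

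**Figure D1:**
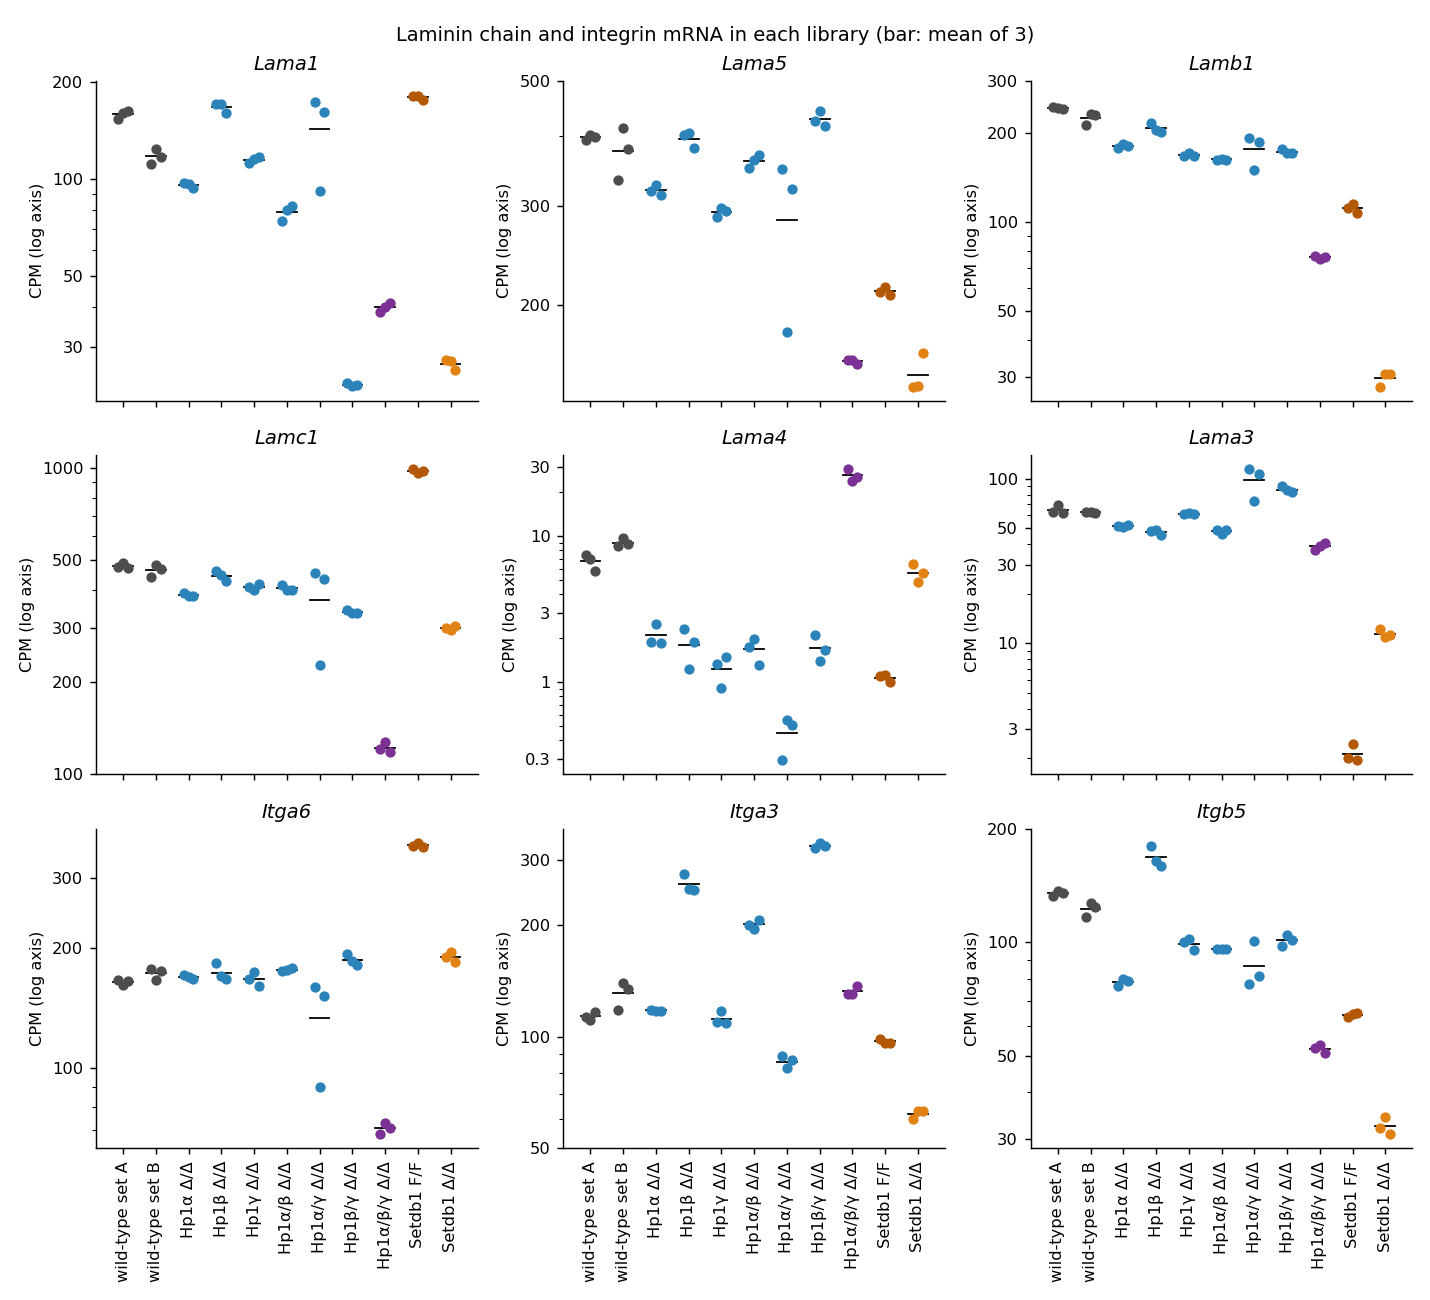
Level of 6 laminin chain genes and 3 integrin subunit genes, in CPM on a log axis, with 1 point per library and a bar at the mean of 3. Lama1, Lamb1 and Lamc1 are low in the triple mutant and in Setdb1 Δ/Δ libraries. Lama4 is low in all single and double mutants and in Setdb1 F/F libraries, and high in the triple mutant. Itga3 is high in the single and double mutants that lack HP1β.

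Loss of 1 or 2 HP1 proteins left most integrin and laminin mRNAs within a log2 fold change of 1, with Lama4 as the exception in every group. In Hp1α Δ/Δ ESCs 1 of 28 genes tested was called (4.87% of all genes), in Hp1β Δ/Δ 3 of 28 (9.1%), in Hp1γ Δ/Δ 1 of 28 (5.59%), in Hp1α/β Δ/Δ 4 of 28 (8.16%), in Hp1α/γ Δ/Δ 3 of 28 (23.1%) and in Hp1β/γ Δ/Δ 5 of 28 (11.9%). The median log2 fold change of the genes tested ran from −0.37 in Hp1α/γ Δ/Δ to 0.06 in Hp1α/β Δ/Δ ESCs, and that of all genes from −0.03 to 0.00. Lama4 was the gene called in all 6, as were 0.33% of the 14868 genes tested in each, and 9 of the 28 were called at least once (30.9% of those genes). By the adjusted p alone, without the fold threshold, 17 of 28 passed in Hp1α Δ/Δ (45% of all genes), 17 in Hp1β Δ/Δ (51.1%), 10 in Hp1γ Δ/Δ (46.7%), 19 in Hp1α/β Δ/Δ (43.4%), 14 in Hp1α/γ Δ/Δ (46.5%) and 17 in Hp1β/γ Δ/Δ ESCs (51.7%), so many differences were small but larger than the spread between libraries. The comparisons that use set A share its 3 libraries, and those that use set B share the 3 of set B.

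Lama4 encodes the laminin α4 chain of mesenchymal and endothelial basement membranes. It had 7.40, 6.99 and 5.77 CPM in replicates 1, 2 and 3 of set A and 8.54, 9.72 and 8.78 CPM in set B. The Hp1α Δ/Δ libraries had 1.90, 2.52 and 1.86 CPM, the Hp1β Δ/Δ libraries 2.31, 1.23 and 1.89 CPM and the Hp1γ Δ/Δ libraries 1.33, 0.908 and 1.48 CPM. No library of a single mutant reached the lowest wild-type library. Setdb1 F/F ESCs, another line with no HP1 gene targeted, had a mean of 1.08 CPM, so a low level was not confined to the HP1 mutants. The log2 fold change was −1.68 (standard error 0.19, edgeR adjusted p = 4.78e-07) in Hp1α Δ/Δ, −1.92 (standard error 0.23, edgeR adjusted p = 3.84e-05) in Hp1β Δ/Δ and −2.45 (standard error 0.22, edgeR adjusted p = 3.45e-08) in Hp1γ Δ/Δ ESCs. Levels in the double mutants were 1.75, 1.99 and 1.32 CPM in Hp1α/β Δ/Δ, 2.12, 1.40 and 1.66 CPM in Hp1β/γ Δ/Δ and 0.294, 0.550 and 0.513 CPM in Hp1α/γ Δ/Δ libraries. These groups lay below both wild-type sets as well, and Hp1α/γ Δ/Δ lay below every other group. Their log2 fold changes were −1.99 (standard error 0.21, edgeR adjusted p = 4.25e-07), −2.38 (standard error 0.16, edgeR adjusted p = 9.31e-09) and −4.35 (standard error 0.24, edgeR adjusted p = 5.03e-05). The 12 feeder fibroblast markers, which include Col1a1 and Thy1, summed to 35.4 to 38.4 CPM in set A, and to 38.5 to 41.8 CPM in Hp1α Δ/Δ, 45.9 to 54.8 CPM in Hp1β Δ/Δ, 47.7 to 51.2 CPM in Hp1γ Δ/Δ and 52.4 to 60.1 CPM in Hp1α/β Δ/Δ libraries, above set A in each. They summed to 58.1 to 69.5 CPM in set B, 41.9 to 45.1 CPM in Hp1β/γ Δ/Δ and 17.6 to 19.0 CPM in Hp1α/γ Δ/Δ libraries, and the part of fewer feeder cells in the Lama4 level of the last groups was not tested. In Hp1α/γ Δ/Δ libraries 7 of the 8 feeder markers tested were lower, and Postn and Twist2 were at 0.

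Itga3, the α3 subunit of a laminin receptor, was higher in the single and double mutants that lack HP1β. It had 113, 111 and 117 CPM in set A and 275, 250.2 and 249.8 CPM in Hp1β Δ/Δ libraries, a log2 fold change of 1.16 (standard error 0.045, edgeR adjusted p = 1.57e-08). Hp1β/γ Δ/Δ libraries had 323, 335 and 328 CPM against 118, 140.1 and 135 CPM in set B, a log2 fold change of 1.33 (standard error 0.057, edgeR adjusted p = 4.14e-11). In Hp1α/β Δ/Δ libraries it had 201, 196 and 207 CPM, above all wild-type libraries, but its log2 fold change of 0.82 (standard error 0.04, edgeR adjusted p = 2.23e-11) stayed under the threshold. Against set B the change in Hp1β Δ/Δ ESCs was 0.96 and no longer passed the threshold. Groups with HP1β intact, Hp1α Δ/Δ (118 to 119 CPM) and Hp1γ Δ/Δ (109 to 117 CPM), lay within or overlapped the range of the wild-type libraries, and Hp1α/γ Δ/Δ (82.3 to 88.6 CPM) lay below both wild-type sets. The triple mutant had 130.4, 131 and 137 CPM, a log2 fold change of 0.26 (standard error 0.035, edgeR adjusted p = 1.99e-06), and was not called. The 8 trophoblast markers moved with Itga3 in part. They summed to 147 to 155 CPM in set A, 452 to 527 CPM in Hp1β Δ/Δ and 576 to 586 CPM in Hp1α/β Δ/Δ libraries, with 5 of 7 tested called higher in each mutant, and to 237 to 253 CPM in set B and 809 to 815 CPM in Hp1β/γ Δ/Δ libraries, with 4 of 7 higher and 1 lower. With HP1β intact they summed to 259 to 266 CPM in Hp1α Δ/Δ, 276 to 282 CPM in Hp1γ Δ/Δ and 83.7 to 107 CPM in Hp1α/γ Δ/Δ libraries. The part of such cells in the Itga3 level was not tested.

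Lama1, the α chain of laminin 111, fell in Hp1β/γ Δ/Δ ESCs and by less in Hp1α/β Δ/Δ ESCs. It had 154, 159.9 and 162 CPM in set A and 74.2, 79.7 and 82.1 CPM in Hp1α/β Δ/Δ libraries, a log2 fold change of −1.01 (standard error 0.046, edgeR adjusted p = 1.08e-11). Hp1β/γ Δ/Δ libraries had 23.2, 22.6 and 22.8 CPM and set B 111, 124 and 117 CPM, a log2 fold change of −2.36 (standard error 0.055, edgeR adjusted p = 3.02e-14). The libraries of both mutants lay below every wild-type library, by a wide margin in Hp1β/γ Δ/Δ. With set B as the control the change in Hp1α/β Δ/Δ ESCs was −0.58 and was not called, and the call was also lost without Hp1α/β Δ/Δ replicate 1 (−0.97) or set A replicate 3 (−0.998). In Hp1β Δ/Δ ESCs, which share the loss of HP1β with both, Lama1 had 171, 171 and 160.0 CPM, a log2 fold change of 0.06 (standard error 0.044, edgeR adjusted p = 0.301). Lama5, Lamb1 and Lamc1 were called in none of the 6 mutants, and their log2 fold changes in Hp1β/γ Δ/Δ ESCs were 0.19, −0.38 and −0.45.

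The other calls in single and double mutants were few and most rested on low counts. Itga9, a receptor subunit for tenascin and other matrix proteins, had 9.99, 8.71 and 8.87 CPM in set A and 17.3, 19.5 and 18.3 CPM in Hp1α/β Δ/Δ libraries without overlap, a log2 fold change of 1.0001 (standard error 0.099, edgeR adjusted p = 2.33e-07) that lies on the threshold and under it without Hp1α/β Δ/Δ replicate 2 (0.95), set A replicate 2 (0.96) or set A replicate 3 (0.97), when every library had to hold 10 counts (0.99) and with set B as the control (0.86). Itgal, the α subunit of the leukocyte integrin LFA-1, had 8.98, 8.96 and 7.78 CPM in set B and 3.53, 3.40 and 2.90 CPM in Hp1β/γ Δ/Δ libraries, a log2 fold change of −1.39 (standard error 0.14, edgeR adjusted p = 6.11e-07). Itga10, a collagen-binding α subunit, had 3.36, 2.37 and 2.88 CPM in set B and 6.46, 6.16 and 5.22 CPM in Hp1α/γ Δ/Δ libraries, a log2 fold change of 1.01 (standard error 0.19, edgeR adjusted p = 0.00468) that fell under the threshold without Hp1α/γ Δ/Δ replicate 1 (0.94) or set B replicate 2 (0.89), with set A as the control (0.85) and with at least 10 counts required in every library (0.98). In these 3 genes the groups do not overlap. Itgb8, which pairs with αv, had 2, 0 and 2 counts in Hp1α/γ Δ/Δ and 20, 19 and 10 counts in set B and was called lower. It passed the filter through set B alone, so the direction of this call was fixed. Itga8, an RGD-binding α subunit, was called higher in Hp1β Δ/Δ (log2 fold change 1.43) and Hp1β/γ Δ/Δ ESCs (1.26), at 1.19 to 2.57 CPM and 1.51 to 1.94 CPM. Itgae, the α subunit of a leukocyte receptor for E-cadherin, was called higher in Hp1α/β Δ/Δ ESCs (1.05), at 1.55 to 2.74 CPM, but not without Hp1α/β Δ/Δ replicate 2 (0.79) or set A replicate 2 (0.997, with an adjusted p that still passed), nor with set B as the control (0.41, edgeR adjusted p = 0.263). Itgb1 had 230.4, 209 and 221 CPM in set B and 416, 402 and 389 CPM in Hp1β/γ Δ/Δ libraries, a log2 fold change of 0.88 (standard error 0.047, edgeR adjusted p = 5.14e-10), which is under the threshold. The heatmap of log2 fold changes shows these calls side by side.

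**Figure D2:**
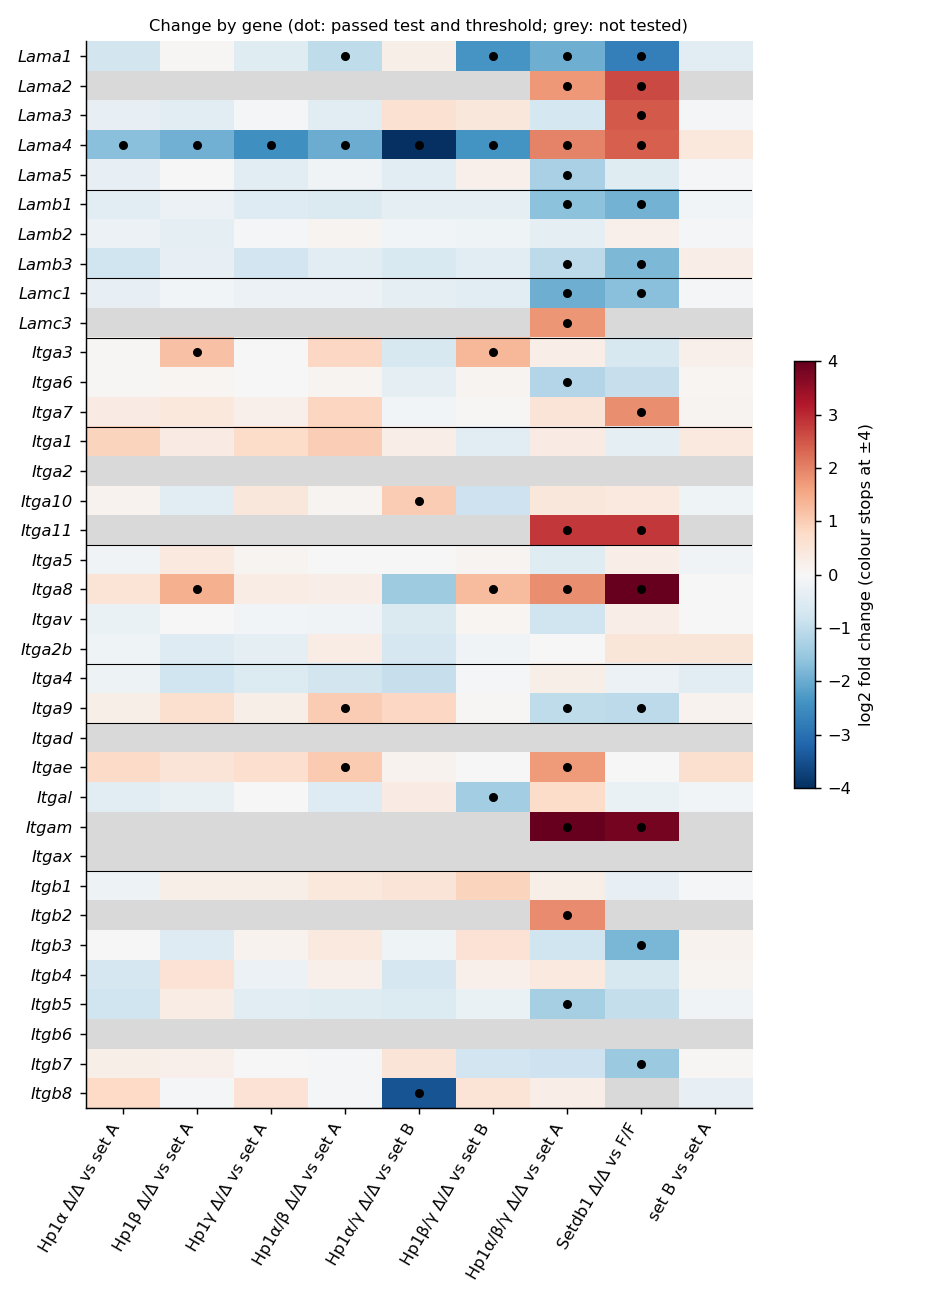
Log2 fold change of integrin and laminin genes (rows, grouped by role) in 8 mutant comparisons and between the wild-type sets (columns), with colour stopped at −4 and 4, a dot where a gene was called and grey where it had too few counts to be tested. Dots in single and double mutants are few and share the Lama4 row, and the triple mutant and Setdb1 Δ/Δ columns hold 16 and 14 dots.

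In the triple mutant the major laminin chains of ESCs fell together with the α6 and β5 integrin subunits, while Lama4 rose. Of 33 genes tested 8 were called higher and 8 lower, against 25.1% and 17.1% of all genes and 42.3% for both directions together, and 28 passed the adjusted p alone (81.6% of all genes). Among the 11 laminin genes 3 were higher and 5 lower, and among the 22 integrin genes tested 5 were higher and 3 lower. The median log2 fold change was 0.24, and that of all genes 0.03. All 8 genes called lower had at least 5 CPM in the higher group, and 7 of the 8 called higher had less than 5 CPM there, Lama4 being the other. Itgam, Itgb2, Itga11, Lama2 and Lamc3 passed the filter on low counts through the triple mutant alone, so these 5 of the 8 higher calls had to differ, and nothing is read from the counts of calls. Over the 28 genes also tested in the single and double mutants 3 were higher and 8 lower, beside 15.8% and 19.7% of all genes tested in each of those comparisons, and with at least 10 counts required in every library 9 genes were called in place of 16.

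Each chain of laminin 111 fell. Lama1 had 154, 159.9 and 162 CPM in replicates 1, 2 and 3 of set A and 38.4, 39.9 and 41.2 CPM in the triple mutant, a log2 fold change of −1.96 (standard error 0.042, edgeR adjusted p = 1.36e-18). Lamb1, the main β chain, had 246, 243 and 241 CPM in set A and 76.7, 74.8 and 76.3 CPM in the triple mutant, a log2 fold change of −1.64 (standard error 0.031, edgeR adjusted p = 1.83e-19). Lamc1 had 474, 492 and 473 CPM and 121, 127 and 118 CPM, a log2 fold change of −1.94 (standard error 0.031, edgeR adjusted p = 1.61e-20). In each of the 3 genes the mutant libraries lay far below the control, 3.88-fold for Lama1, 3.13-fold for Lamb1 and 3.83-fold for Lamc1. Lama5, the chain that leads in adult epithelial and vascular basement membranes, had 393, 402 and 397 CPM in set A and 160.3, 159.7 and 157 CPM in the triple mutant, a log2 fold change of −1.28 (standard error 0.026, edgeR adjusted p = 5.08e-19). Lamb3, the β chain of the epithelial laminin 332, had 7.17, 7.18 and 7.22 CPM and 2.96, 4.18 and 3.13 CPM, a log2 fold change of −1.04 (standard error 0.17, edgeR adjusted p = 1.31e-05), and this call was lost when triple mutant replicate 1 (−0.95) or replicate 3 (−0.98) was left out. Groups of both genes do not overlap. Lamb2, the β chain of laminins in place of β1, and Lama3 were not called, with log2 fold changes of −0.35 (standard error 0.062) and −0.71 (standard error 0.058).

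The rise of Lama4 in the triple mutant stood opposite to its fall in the single and double mutants. It had 7.40, 6.99 and 5.77 CPM in set A and 28.7, 24.0 and 25.6 CPM in the triple mutant, a log2 fold change of 1.99 (standard error 0.11, edgeR adjusted p = 1.41e-12) or 3.97-fold. All 3 triple mutant libraries exceeded every library of the other 10 groups. Lama2, the α chain of muscle laminin, had 8, 4 and 6 counts in set A and 16, 23 and 26 counts in the triple mutant, and Lamc3 had 5, 9 and 8 and 38, 15 and 29 counts. Both were called higher, with log2 fold changes of 1.73 (standard error 0.46) and 1.77 (standard error 0.45) at 0.686 to 1.09 CPM and 0.713 to 1.63 CPM in the triple mutant. Both entered the test through the triple mutant alone, so the filter fixed this direction.

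Among the integrins, Itga6, the α subunit of the laminin receptors α6β1 and α6β4, had 166, 161 and 165 CPM in set A and 68.5, 73.1 and 71.0 CPM in the triple mutant, a log2 fold change of −1.18 (standard error 0.037, edgeR adjusted p = 3.58e-16). Itgb5, the β subunit of the vitronectin receptor αvβ5, had 133, 137 and 135 CPM and 52.4, 53.3 and 50.8 CPM, a log2 fold change of −1.34 (standard error 0.04, edgeR adjusted p = 2.18e-16). Itga9 had 9.99, 8.71 and 8.87 CPM and 4.50, 4.56 and 4.33 CPM, a log2 fold change of −1.01 (standard error 0.14, edgeR adjusted p = 1.68e-06), and DESeq2 (−0.98), RLE scaling (−0.98) and leaving out triple mutant replicate 3 (−0.98) or set A replicate 1 (−0.96) put it just under the threshold. In all 3 genes the groups do not overlap. The partners of these subunits were not called. Itgb1 had 223 to 234 CPM in set A, against 258 to 267 CPM in the triple mutant, a log2 fold change of 0.24 (standard error 0.028, edgeR adjusted p = 2.10e-07), Itgav was at −0.80 (standard error 0.059) and Itgb4, the partner of α6 in hemidesmosomes, was at 0.38 (standard error 0.096).

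The integrins called higher in the triple mutant were all rare. Itgam, the αM subunit of the leukocyte integrin Mac-1, had 0, 5 and 0 counts in set A and 80, 59 and 88 counts in the triple mutant, or 3.43, 2.80 and 3.40 CPM, a log2 fold change of 5.30 (standard error 0.55, edgeR adjusted p = 3.80e-08), whose size is uncertain with so few control counts. Every triple mutant library was above every library of the 8 wild-type, single and double mutant groups. Itgam shares 3450 exonic bases with the predicted gene Gm49368 on the same strand, so reads may be divided between them. Itgb2, the β2 partner of αM, had 3, 6 and 8 and 22, 22 and 25 counts and a log2 fold change of 1.90 (standard error 0.46, edgeR adjusted p = 9.44e-04), Itga11, a collagen receptor subunit, 8, 5 and 1 and 32, 31 and 46 counts and 2.82 (standard error 0.48, edgeR adjusted p = 2.78e-05), Itga8 14, 17 and 14 and 57, 52 and 67 counts and 1.86 (standard error 0.3, edgeR adjusted p = 1.27e-05), and Itgae 23, 20 and 21 and 72, 63 and 91 counts and 1.71 (standard error 0.26, edgeR adjusted p = 7.46e-06). The groups of these genes do not overlap, and no triple mutant library of them exceeded 5 CPM. Itgam, Itgb2 and Itga11 entered the test through the triple mutant alone, so the filter fixed the direction of their calls. Itgax and Itgad, which lie 11.1 kb and, beyond Itgax, 3.7 kb downstream of Itgam on chromosome 7, had 7, 3 and 5 and 0, 3 and 7 counts in the triple mutant and none in set A, too few for the filter used here. With no filter beyond 1 count both were called higher by edgeR, with an adjusted p of 0.00856 for Itgax and 0.0392 for Itgad. With set A at 0 no other direction was possible, so nothing is read from these calls, and no size is given. Of the 8 blood cell markers, Ptprc, the pan-leukocyte antigen CD45, was at 0 to 0.194 CPM in set A, against 0 to 0.116 CPM in the triple mutant, Pf4 was at 0 in both, Spi1 was at 0.185 to 0.555 and 3.17 to 4.49 CPM, and the list summed to 60.5 to 65.7 and 77.8 to 80.9 CPM, with 1 of the 4 genes tested called higher.

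RefSeq promoters on GRCm38.p6, 250 bases before to 50 after a start, were matched for 23 of the 37 genes, and 11 of the 23 hold a GC box, searched as GGGCGG or its complement CCGCCC on either strand, against 35.7% of all 32851 promoters in the table. The bases before the gene are shown, with GC boxes in capitals, for 3 genes that fell from a high level and for Itgam, which rose from almost no counts, to set the letters near the start of both kinds side by side. The 4 were chosen after their values were seen. The stretches are chr2:180225860-180226109 on the minus strand for Lama5, chr12:31265043-31265233 on the plus strand for Lamb1, chr16:33829415-33829664 on the plus strand for Itgb5 and chr7:128062390-128062639 on the plus strand for Itgam, each written 5′ to 3′.
Lama5: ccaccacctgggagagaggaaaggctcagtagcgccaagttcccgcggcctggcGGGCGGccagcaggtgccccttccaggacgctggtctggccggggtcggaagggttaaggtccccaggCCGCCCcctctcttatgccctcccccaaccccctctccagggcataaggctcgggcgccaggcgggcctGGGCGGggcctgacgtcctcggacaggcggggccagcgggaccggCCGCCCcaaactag
Lamb1: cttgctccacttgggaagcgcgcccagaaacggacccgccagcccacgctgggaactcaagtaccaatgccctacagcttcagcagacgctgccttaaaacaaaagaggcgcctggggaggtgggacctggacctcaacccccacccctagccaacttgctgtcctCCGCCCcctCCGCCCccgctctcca
Itgb5: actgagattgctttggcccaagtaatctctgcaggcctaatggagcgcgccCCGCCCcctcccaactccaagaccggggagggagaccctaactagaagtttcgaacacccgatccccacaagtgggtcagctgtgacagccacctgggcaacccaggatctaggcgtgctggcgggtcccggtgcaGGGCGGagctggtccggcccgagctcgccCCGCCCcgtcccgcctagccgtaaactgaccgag
Itgam: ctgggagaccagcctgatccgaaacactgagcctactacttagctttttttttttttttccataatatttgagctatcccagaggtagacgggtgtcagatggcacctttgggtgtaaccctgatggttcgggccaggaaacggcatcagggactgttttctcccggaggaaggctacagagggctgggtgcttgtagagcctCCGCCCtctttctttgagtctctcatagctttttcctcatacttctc
The Lama5, Lamb1 and Itgb5 stretches hold 4, 2 and 3 GC boxes and 19, 10 and 18 CpG dinucleotides, and the Itgam stretch holds 1 GC box and 6 CpG dinucleotides. The 4 genes do not stand for the others that rose or fell. Over 300 bases Itga8 and Itga11, called higher, hold 23 and 16 CpG dinucleotides and no GC box, and Lama2, also called higher, holds 1 of each. Itga9 and Lamb3, called lower, hold no GC box, with 10 CpG dinucleotides in Itga9 and 2 and 5 in the Lamb3 entries. A match is a description of these letters and not of a bound site.

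Against Hp1α/β Δ/Δ ESCs, which already lack HP1α and HP1β, the triple mutant also lacks HP1γ. It further differs by Cre and by the time of loss, which cannot be told apart from the loss of HP1γ. Of 33 genes tested 8 were called higher and 6 lower, with 25.4% and 16% of all genes called in these directions, 41.4% together. By the adjusted p alone 28 passed (80.6%). The 5 genes that passed the filter through the triple mutant alone are again among the higher. The median log2 fold change was −0.34, and that of all genes 0.04. Lamc1, Lama5, Lamb1, Itga6 and Itga9, which fell from set A, fell from this group too, and Lama4 rose again. Lama4 had 1.75, 1.99 and 1.32 CPM in Hp1α/β Δ/Δ and 28.7, 24.0 and 25.6 CPM in triple mutant libraries, a log2 fold change of 3.96 (standard error 0.14, edgeR adjusted p = 2.27e-13). Lamc1, at 415, 399 and 400.4 CPM in Hp1α/β Δ/Δ libraries, had a log2 fold change of −1.71 (standard error 0.036, edgeR adjusted p = 5.87e-16). Itga6, at 175, 176 and 179 CPM there, had one of −1.29 (standard error 0.04, edgeR adjusted p = 4.68e-14). Lama5 and Lamb1 followed with −1.16 (standard error 0.034, edgeR adjusted p = 2.29e-14) and −1.08 (standard error 0.039, edgeR adjusted p = 2.85e-13). When every library had to hold 10 counts Lamb1 was at −0.97 and not called. Lama1, already lower in Hp1α/β Δ/Δ ESCs, changed by −0.96 (standard error 0.053, edgeR adjusted p = 6.98e-11), just under the threshold. The groups do not overlap for any of these 6 genes. Itga9 had 17.3, 19.5 and 18.3 CPM in Hp1α/β Δ/Δ and 4.50, 4.56 and 4.33 CPM in triple mutant libraries, a log2 fold change of −2.02 (standard error 0.11, edgeR adjusted p = 5.51e-11). It was thus higher in Hp1α/β Δ/Δ and lower in triple mutant libraries than in set A. Itgb3, the β subunit of the vitronectin receptor αvβ3, had 6.70, 6.93 and 6.86 CPM and 3.56, 2.33 and 2.86 CPM, a log2 fold change of −1.20 (standard error 0.18, edgeR adjusted p = 1.30e-05). Itgal had 5.36, 7.26 and 6.58 CPM and 16.8, 14.4 and 13.7 CPM, a log2 fold change of 1.24 (standard error 0.13, edgeR adjusted p = 2.25e-07). The triple mutant enters both of its comparisons, which are therefore not independent. The other genes called higher, Itgam, Itga8, Itga11, Itgb2, Lama2 and Lamc3, had less than 5 CPM in both groups.

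In Setdb1 Δ/Δ cells the chains of laminin 111 also fell, and Lama3, Lama4 and Itga7 rose. Of 30 genes tested 7 were called higher and 7 lower, against 18.5% and 11.4% of all genes and 29.9% together, and 24 passed the adjusted p alone (78.9%). Among the 10 laminin genes tested 3 were higher and 4 lower, and among the 20 integrin genes 4 were higher and 3 lower. The median log2 fold change of the 30 genes was −0.30, and that of all genes 0.01. Lama2, Itga8, Itga11 and Itgam, all among the 7 called higher, passed the filter on low counts through the Setdb1 Δ/Δ libraries alone and had to differ. This comparison shares no library with those of the HP1 mutants.

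Lama1 had 181, 182 and 175 CPM in Setdb1 F/F and 27.2, 27.2 and 25.4 CPM in Setdb1 Δ/Δ libraries, a log2 fold change of −2.74 (standard error 0.038, edgeR adjusted p = 7.36e-20). Lamb1 had 112, 115 and 107 CPM and 27.8, 30.6 and 30.7 CPM, a log2 fold change of −1.89 (standard error 0.046, edgeR adjusted p = 1.50e-16). Lamc1 had 992, 962 and 978 CPM and 299.6, 297 and 305 CPM, a log2 fold change of −1.69 (standard error 0.021, edgeR adjusted p = 1.37e-20). The groups are far apart in each, and Lama1 was 6.67-fold lower. Lama5 had 211, 216 and 208 CPM and 143, 144 and 165 CPM, which do not overlap, but its log2 fold change of −0.48 (standard error 0.041, edgeR adjusted p = 1.03e-08) was not called. Lamb3, at 2.95 to 3.78 CPM in Setdb1 F/F, was called lower with −1.81 (standard error 0.26, edgeR adjusted p = 6.16e-06). Lama3 and Lama4 rose, from levels in Setdb1 F/F ESCs below those of wild-type ESCs. Lama3, the α chain of laminin 332, had 2.0, 2.43 and 1.95 CPM in Setdb1 F/F and 12.1, 10.9 and 11.2 CPM in Setdb1 Δ/Δ libraries, a log2 fold change of 2.44 (standard error 0.13, edgeR adjusted p = 1.53e-11), beside 62.2 to 69.3 CPM in set A. Lama4 had 1.10, 1.13 and 1.004 CPM and 6.43, 4.88 and 5.57 CPM, a log2 fold change of 2.39 (standard error 0.19, edgeR adjusted p = 4.20e-09), beside 5.77 to 7.40 CPM in set A. Lama2 had 2, 8 and 6 and 44, 32 and 38 counts and was called higher (2.63, standard error 0.39), a direction fixed by the filter. Setdb1 F/F and wild-type ESCs are different lines, so floxing and line cannot be told apart in levels set side by side across them.

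Of the integrins, Itgb3 had 14.3, 13.3 and 14.1 CPM in Setdb1 F/F and 4.07, 3.74 and 3.82 CPM in Setdb1 Δ/Δ libraries, a log2 fold change of −1.82 (standard error 0.11, edgeR adjusted p = 3.43e-11). Itgb7, a β subunit that pairs with α4 and αE, had 40.8, 40.2 and 42.0 CPM and 14.7, 15.2 and 13.7 CPM, a log2 fold change of −1.48 (standard error 0.059, edgeR adjusted p = 1.61e-13). Itga9 had 28.5, 30.5 and 30.6 CPM and 13.6, 14.9 and 14.3 CPM, a log2 fold change of −1.05 (standard error 0.065, edgeR adjusted p = 9.17e-11). When every library had to hold 10 counts its change was −0.99, just under the threshold. Libraries of the 2 groups do not overlap in these genes or in the next. Itga7, a laminin receptor α subunit known from muscle, had 1.40, 1.92 and 0.886 CPM and 5.32, 6.02 and 3.96 CPM, a log2 fold change of 1.87 (standard error 0.24, edgeR adjusted p = 1.38e-06). Itga6 had 361, 366 and 359 CPM and 190.1, 195 and 185 CPM, and its log2 fold change of −0.91 (standard error 0.025, edgeR adjusted p = 8.96e-16) was under the threshold. Itga3 and Itgb5 were at −0.63 (standard error 0.035) and −0.97 (standard error 0.047) and Itgb1 at −0.34 (standard error 0.029), none of them called. Itgam had 0, 9 and 8 counts in Setdb1 F/F and 79, 105 and 96 counts in Setdb1 Δ/Δ libraries (3.83, standard error 0.39, edgeR adjusted p = 7.87e-08), Itga8 0, 1 and 3 and 39, 42 and 43 counts (4.66, standard error 0.49, edgeR adjusted p = 1.20e-07) and Itga11 3, 2 and 1 and 13, 17 and 21 counts (2.84, standard error 0.5, edgeR adjusted p = 5.34e-05). These 3 were called higher, with sizes that rest on few control counts. They entered the test through the Setdb1 Δ/Δ libraries alone, so the filter fixed this direction.

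Of the 33 genes tested, 9 were called in none of the 10 comparisons, beside 35.3% of the 19104 genes tested in at least 1. They include Itgb1, with log2 fold changes from −0.34 to 0.88, and its collagen and fibronectin receptor partners Itga1 (−0.67 to 0.996) and Itga5 (−0.52 to 0.38). They also include Itga4 (−0.91 to 0.98), the α subunit of VCAM-1 receptors, Itga2b (−0.67 to 0.48), the platelet α subunit, Itgav (−0.80 to 0.25) and Itgb4 (−0.68 to 0.59). Other settings called some of them. Itga4 passed against Hp1α/β Δ/Δ ESCs by DESeq2 (1.01), with RLE scaling (1.01), when every library had to hold 10 counts (1.09) and without triple mutant replicate 2 (1.05), and in Hp1α/γ Δ/Δ ESCs with set A as the control (−1.33) or without Hp1α/γ Δ/Δ replicate 3 (−1.14). Itga1 passed in Hp1α Δ/Δ ESCs without Hp1α Δ/Δ replicate 3 (1.04) or set A replicate 3 (1.01), and in Hp1α/β Δ/Δ ESCs without Hp1α/β Δ/Δ replicate 2 (1.02) or 3 (1.06) or set A replicate 3 (1.10). Lamb2 (−0.48 to 0.22) is a laminin chain among them. Among genes with at least 100 CPM on average, Itgb1 was the only one of 7 in this group.

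The responses to loss of HP1 and of SETDB1 were set side by side for the 30 genes tested in both. The same direction was called in both for 10 of them, with Lama2, Lama4, Itga8, Itga11 and Itgam higher and Lama1, Lamb1, Lamb3, Lamc1 and Itga9 lower, and no gene was called in opposite directions. Of all 15470 genes tested in both, 14.6% were called in the same direction and 2.09% in opposite directions. Lama2, Itga11 and Itgam entered both tests through the mutant libraries alone, so the filter fixed their direction. Itga8, with 0, 1 and 3 counts in Setdb1 F/F libraries, entered the SETDB1 test in the same way. Among genes with at least 10 counts in each of the 12 libraries the same direction was called for 6 of 25, beside 9.63% of all 13121. When the filter required 10 counts in every library, Itga9 (−0.91 after HP1 loss, −0.99 after SETDB1 loss) and Lamb3 (−0.94 after HP1 loss) fell under the threshold. The difference of the responses was then tested over the 12 libraries, and 7 of 33 genes were called, against 31.9% of all genes, while 21 passed the adjusted p alone (64.9%). Of the 7, Lama3 differed most, with log2 fold changes of −0.71 after HP1 loss and 2.44 after SETDB1 loss, a difference of −3.18 (standard error 0.13, edgeR adjusted p = 1.66e-15). Itga8 (−2.84, standard error 0.65, edgeR adjusted p = 5.40e-04), Itga7 (−1.39, standard error 0.34, edgeR adjusted p = 9.84e-04) and Itgav (−1.07, standard error 0.078, edgeR adjusted p = 2.98e-11) responded more positively to SETDB1 loss. Itgae (1.69, standard error 0.4, edgeR adjusted p = 8.24e-04), Itgb3 (1.02, standard error 0.21, edgeR adjusted p = 1.83e-04) and Itgb4 (1.01, standard error 0.14, edgeR adjusted p = 9.35e-07) responded more positively to HP1 loss, and the calls of Itgb3 and Itgb4 fell under the threshold without some libraries, at 0.88 for Itgb3 without triple mutant replicate 1 and 0.92 for Itgb4 without set A replicate 2. For Lama4 the difference was −0.42 (standard error 0.24, edgeR adjusted p = 0.121) and did not pass the test. Lamb1 (0.22, standard error 0.056, edgeR adjusted p = 0.00162), Lamc1 (−0.28, standard error 0.037, edgeR adjusted p = 5.64e-07) and Lama1 (0.75, standard error 0.059, edgeR adjusted p = 9.67e-11) passed the adjusted p but stayed under a difference of 1.

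**Figure D3:**
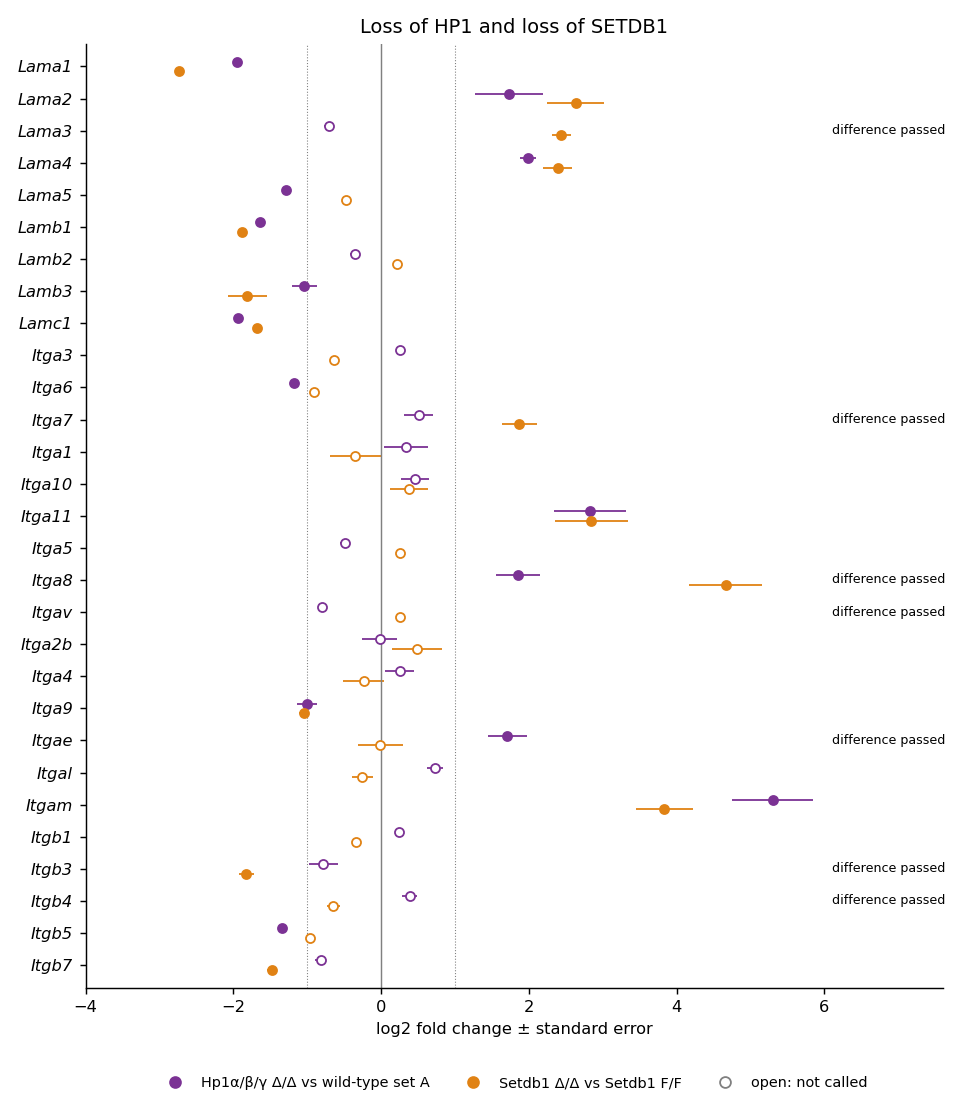
Log2 fold change with its standard error after loss of HP1 (purple, triple mutant against set A) and of SETDB1 (orange, Setdb1 Δ/Δ against Setdb1 F/F) for genes tested in both, filled where called. Lama1, Lamb1, Lamb3, Lamc1 and Itga9 lie beyond −1 in both, and the 7 genes whose difference was called are marked at the right, Lama3 with −0.71 and 2.44 among them.

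Since chains assemble at 1 α, 1 β and 1 γ per trimer, the share of each α and β chain in the summed TPM of its class was computed as a description. In set A Lama5 made up 65.7% ± 1.49 (SD, n = 3) of the α chain TPM and Lama1 22.4% ± 0.578. In the triple mutant Lama5 made up 52.3% ± 1.09, Lama1 14.8% ± 2.33 and Lama4 16.5% ± 2.74, from 1.38% ± 0.184 in set A. In Setdb1 F/F Lama1 made up 43.0% ± 0.779 and in Setdb1 Δ/Δ 12.2% ± 2.13, while Lama5 went from 55.6% ± 1.11 to 72.9% ± 0.296. So the α chain mRNA of the triple mutant held more α4, and that of Setdb1 Δ/Δ cells less α1. The Lama3 share rose in the triple mutant too, with 10.1 of 63.3 TPM there, against 11.8 of 113 TPM in set A. Lama4 had 10.3 TPM in the triple mutant. Of the β chain TPM Lamb1 made up 76.1% ± 1.72 in set A and 59.98% ± 2.44 in the triple mutant, and 62.7% ± 0.516 in Setdb1 F/F and 27.2% ± 1.64 in Setdb1 Δ/Δ. Lamb2 took the remainder almost whole, at 70.2% ± 2.18 in Setdb1 Δ/Δ, although Lamb2 itself was not called (0.22). Counts per kb of annotated exon give other shares, for example 9.04% for Lama4 in the triple mutant and 49.8% and 19.2% for Lamb1 in Setdb1 F/F and Setdb1 Δ/Δ, with the same directions between the groups compared here. Among the β integrins Itgb1 made up 45.2% ± 0.579 of the TPM in set A and 65.8% ± 3.73 in the triple mutant, and Itgb5 38.7% ± 0.972 and 19.6% ± 0.3001. Among the α integrins Itga6 made up 48.4% ± 2.08 and 29.5% ± 1.10, and Itga3 27.1% ± 2.88 and 40.9% ± 0.276. The α integrin shares depend on the length used too, 3393 bases deposited for Itga6 against 9025 bases of annotated exon.

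**Figure D4:**
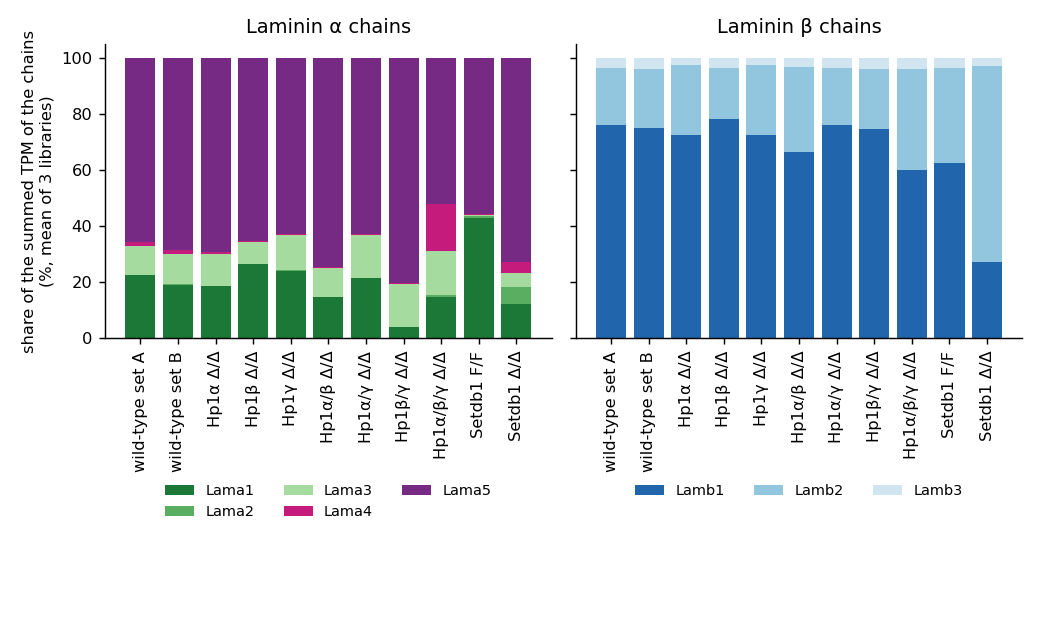
Share of each chain in the summed TPM of the laminin α and β chains, in percent, as the mean of 3 libraries in each of the 11 groups. The triple mutant holds the widest Lama4 band of all groups, 16.5% of the α chain TPM, and Setdb1 Δ/Δ is the group in which Lamb2 exceeds Lamb1.

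Other basement membrane genes fell with the laminins in the triple mutant. Of 19 genes in a list of laminin partners and other matrix genes, 14 were tested and 8 were lower and 1 higher, beside 17.1% and 25.1% of all genes, with a median log2 fold change of −1.04 beside 0.03 for all genes. Col18a1, a basement membrane collagen, had 617, 633 and 608 CPM in set A and 61.1, 66.5 and 63.9 CPM in the triple mutant, a log2 fold change of −3.24 (standard error 0.032, edgeR adjusted p = 1.89e-23). Nid1, which links laminin γ1 to type IV collagen, had 129.7, 131 and 135 CPM and 27.7, 27.3 and 24.0 CPM, a log2 fold change of −2.29 (standard error 0.053, edgeR adjusted p = 3.84e-18). Fn1, fibronectin, had 1524, 1541 and 1514 CPM and 349, 351 and 332 CPM, a log2 fold change of −2.11 (standard error 0.024, edgeR adjusted p = 1.46e-22). All triple mutant libraries lay below all set A libraries for these genes. Against Hp1α/β Δ/Δ ESCs 9 of 15 were lower and 1 higher, beside 16% and 25.4% of all genes, with a median of −1.48 beside 0.04. Among the lower was Hspg2, the proteoglycan perlecan (−1.58, standard error 0.036, edgeR adjusted p = 1.15e-15). In Setdb1 Δ/Δ cells 5 of 12 were lower and 2 higher, beside 11.4% and 18.5% of all genes, with a median of −0.41 beside 0.01. Col18a1 (−2.54, standard error 0.028, edgeR adjusted p = 3.34e-21), Col4a1 (−2.48, standard error 0.069, edgeR adjusted p = 9.54e-16), a type IV collagen chain, and Nid1 (−2.12, standard error 0.032, edgeR adjusted p = 2.27e-19) fell most of those with at least 5 CPM. In the 3 single mutants, in Hp1β/γ Δ/Δ ESCs and in the Hp1α/β Δ/Δ line at most 1 gene was called in either direction. Of all genes 4.87% to 11.9% were called in these groups, both directions together. Npnt, a ligand of α8β1, was among those called (−1.09, standard error 0.19, edgeR adjusted p = 1.99e-04 in Hp1α/β Δ/Δ). In Hp1α/γ Δ/Δ ESCs 5 of 13 were lower, beside 23.1% of all genes called in both directions together. They include Col4a2 (−1.56, standard error 0.16, edgeR adjusted p = 3.40e-04), Col4a1 (−1.34, standard error 0.21, edgeR adjusted p = 0.0022) and Npnt (−1.02, standard error 0.24, edgeR adjusted p = 0.0125).

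The 25 adhesion plaque genes of a further list encode proteins that act with integrins, on their inner side or, like the product of Cd151, in the membrane. In the triple mutant 4 of 24 tested were lower and 1 higher, beside 17.1% and 25.1% of all genes, with a median of −0.29 beside 0.03 for all genes. Tln2, a talin that activates integrins, had 85.7, 82.3 and 83.4 CPM in set A and 24.1, 25.0 and 25.6 CPM in the triple mutant, a log2 fold change of −1.71 (standard error 0.052, edgeR adjusted p = 2.27e-16). Cd151, a tetraspanin partner of α3β1 and α6β1, had 53.2, 56.4 and 55.7 CPM and 19.6, 18.9 and 18.1 CPM, a log2 fold change of −1.51 (standard error 0.059, edgeR adjusted p = 1.34e-14). Ptk2, focal adhesion kinase, was at −1.18 (standard error 0.047, edgeR adjusted p = 1.39e-14). Libraries of the groups do not overlap in these genes. Against Hp1α/β Δ/Δ ESCs 9 of 25 were lower and 1 higher, beside 16% and 25.4% of all genes, including the tensin Tns3 (−1.79, standard error 0.039, edgeR adjusted p = 7.36e-16). In Setdb1 Δ/Δ cells 4 of 24 were lower, beside 11.4% of all genes, with Tns1 (−1.97, standard error 0.055, edgeR adjusted p = 1.12e-15) and Parvb (−1.68, standard error 0.035, edgeR adjusted p = 1.67e-17), a parvin that binds integrin-linked kinase, the largest falls with at least 5 CPM. Parvb rose in Hp1β Δ/Δ (1.09, standard error 0.1, edgeR adjusted p = 8.23e-06), Hp1α/β Δ/Δ (1.47, standard error 0.079, edgeR adjusted p = 7.69e-11) and Hp1α/γ Δ/Δ ESCs (2.08, standard error 0.12, edgeR adjusted p = 7.06e-05). In Hp1α/γ Δ/Δ ESCs 3 of 24 were higher and 3 lower, beside 23.1% of all genes called in both directions together. Parva was at −2.78 (standard error 0.16, edgeR adjusted p = 5.52e-05) and Tns1 at 1.05 (standard error 0.25, edgeR adjusted p = 0.0115). In Hp1α Δ/Δ and Hp1γ Δ/Δ ESCs and between the wild-type sets 1 gene of the 24 was called higher. Of all genes 4.87%, 5.59% and 5.68% were called there, both directions together. In Hp1β Δ/Δ and Hp1α/β Δ/Δ ESCs 2 were called higher, beside 9.1% and 8.16% of all genes. In Hp1β/γ Δ/Δ 12 were higher and 3 lower by edgeR's adjusted p alone, beside 51.7% of all genes. None passed the fold threshold there, beside 11.9% of all genes.

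Markers of other cell types moved in the same comparisons. The feeder fibroblast markers summed to 35.4 to 38.4 CPM in set A, against 14.6 to 16.6 CPM in the triple mutant, with 4 of the 8 tested lower and 1 higher, among 12 listed, and to 14.9 to 16.8 CPM in Setdb1 F/F and 5.85 to 7.34 CPM in Setdb1 Δ/Δ, with 3 of 4 lower. Col1a1, which fibroblasts express strongly, was at 5.82 to 6.67 CPM in set A, against 1.55 to 2.36 CPM in the triple mutant, and Lum and S100a4 were at 0 in set A. The 12 markers of primitive and parietal endoderm, cells that secrete laminin 111, summed to 12.8 to 15.9 CPM in set A, against 25.7 to 27.2 CPM in the triple mutant, and to 45.0 to 49.8 CPM in Setdb1 F/F and 13.6 to 14.6 CPM in Setdb1 Δ/Δ. In the triple mutant 5 of the 9 tested were higher, and in Setdb1 Δ/Δ 5 of the 11 tested were lower and 1 higher. The endoderm sum was thus higher in the triple mutant and lower in Setdb1 Δ/Δ, while Lama1, Lamb1 and Lamc1 were lower in both. The 8 trophoblast markers summed to 147 to 155 CPM in set A, 278 to 288 CPM in the triple mutant, 237 to 253 CPM in set B and 809 to 815 CPM in Hp1β/γ Δ/Δ. The part of such cells in the integrin and laminin levels was not tested.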

How the data were processed

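RNA-seq libraries of 33 ESC samples in 11 groups were read from 8 deposited tables. Per the labels the authors used TopHat2 2.1.1, RSEM and edgeR with GRCm38.p5. The deposited expected counts (estimated counts by RSEM, 87.1% whole) were rounded, and the deposited TPM, which the authors computed per length, served for levels between genes. A wild-type or mutant column that several tables repeat was used once. Groups came from the sample labels.

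Genes were filtered with filterByExpr (minimum count 10), scaled by TMM and tested with edgeR 4.0.16 (quasi-likelihood, R 4.3.3), with Benjamini-Hochberg adjustment over all genes tested in that comparison. Each comparison was fitted on its own groups, and the difference of the HP1 and SETDB1 responses on 4 groups. DESeq2 1.42.0, other scaling and filters, the replicate number as a block, exchanging the wild-type sets and leaving out each library were alternatives. The procedure was tested on simulated data.

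The 37 genes and the gene lists were chosen with earlier results of these data known. Given library by library were called genes with a mean of at least 5 CPM and groups that do not overlap, up to 8 rises and 8 falls (4 and 4 outside the comparisons of the triple mutant with set A, of Setdb1 and of Hp1α/γ Δ/Δ), genes with a mean of at least 100 CPM, and up to 3 rises and 3 falls of each partner list. Other genes with values, among them all under 5 CPM, were chosen after their values were seen. Of the 37 genes 12 share exonic bases with another gene, 9 of them on the opposite strand, and whether counting used strand is not given in the sources used here. The samples are labelled as replicates, and p-values measure the spread between them. Columns of the authors' own fold changes and p-values were not used. Promoter sequences came from a RefSeq table on GRCm38.p6, and 14 of the 37 genes had no match. The values of 1 of the 37 genes are not reported here, although it enters the counts.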

Additional observations from a re-analysis of the deposited data

Results flagged for a closer look

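The log2 fold change after loss of HP1 (triple mutant against set A) differed from that after loss of SETDB1 (Setdb1 Δ/Δ against Setdb1 F/F) for 7 genes, by edgeR's test of the difference itself over 12 libraries. HP1 loss minus SETDB1 loss was −3.18 for Lama3, −2.84 for Itga8, −1.39 for Itga7 and −1.07 for Itgav. It was 1.69 for Itgae, 1.02 for Itgb3 and 1.01 for Itgb4. Lama3, Itga8 and Itga7 were called higher after SETDB1 loss, at 2.44, 4.66 and 1.87, and Itgae after HP1 loss, at 1.71. The Itga8 values rest on 0, 1 and 3 counts in Setdb1 F/F libraries. Itga8 was not tested when every library had to hold 10 counts. Itgav was called in neither, at −0.80 and 0.25. The pairs of groups differ also in their control lines, which cannot be told apart from the protein lost.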

How the results depend on the processing

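Of 590 values of named genes under the alternatives, 557 kept their direction and their side of the threshold, 33 fell under the threshold and 0 reversed. With the adjusted p alone and no fold threshold, the counts of genes called were 17 in Hp1α Δ/Δ, 17 in Hp1β Δ/Δ, 10 in Hp1γ Δ/Δ, 19 in Hp1α/β Δ/Δ, 14 in Hp1α/γ Δ/Δ, 17 in Hp1β/γ Δ/Δ, 28 in the triple mutant against set A, 28 against Hp1α/β Δ/Δ, 24 in Setdb1 Δ/Δ, 3 between the wild-type sets and 21 for the difference. With the other wild-type set as control they were 3 in Hp1α Δ/Δ, 2 in Hp1β Δ/Δ, 2 in Hp1γ Δ/Δ, 1 in Hp1α/β Δ/Δ, 4 in Hp1α/γ Δ/Δ and 6 in Hp1β/γ Δ/Δ, and in the triple mutant 16, the same 16 genes. With no filter beyond 1 count Hp1α/γ Δ/Δ had 5. With at least 10 counts in every library, which leaves 25 to 28 of the genes tested, edgeR called 0 in Hp1α/γ Δ/Δ, where DESeq2 with the usual filter called 3, and 9 each in the triple mutant against set A, against Hp1α/β Δ/Δ and in Setdb1 Δ/Δ. Leaving out 1 library gave 1 to 2 in Hp1α Δ/Δ (2 without Hp1α Δ/Δ replicate 1 or 3 or set A replicate 3), 3 to 3 in Hp1β Δ/Δ, 1 to 1 in Hp1γ Δ/Δ, 3 to 5 in Hp1α/β Δ/Δ, 2 to 4 in Hp1α/γ Δ/Δ, 5 to 5 in Hp1β/γ Δ/Δ, 14 to 16 in the triple mutant, 14 to 15 against Hp1α/β Δ/Δ, 14 to 15 in Setdb1 Δ/Δ, 0 to 0 between the wild-type sets and 5 to 8 for the difference. With the replicate number as a block the counts were 1, 3, 1, 3, 3, 5, 16, 14, 14, 0 and 7 in the order just given. Samples with the same number correlated between −0.07 and 0.17 in their deviations, so the numbers were not taken to pair them. Shares per kb of annotated exon, an alternative chosen after seeing the data, moved 24 of 28 chain shares by more than 1 SD. Genes of a few counts, such as Itgam, are limited by depth in the size of their change.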
